A study of Mus musculus with 21 samples.

Results

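Peritoneal B-1a and B-1b cells of wildtype (WT) C57BL/6 mice were compared in 4 of the 21 RNASeq libraries of the series. These were the B-1a libraries titled WT 3 and WT 4 and the B-1b libraries titled WT 3 and WT 4, giving 2 libraries a side, and every gene with enough counts was tested, with immunoglobulin genes reported apart from the rest. The study set WT mice against mice with a global knockout of TET2 (TET2-KO), an enzyme that oxidises methylated cytosine in DNA, and sorted 3 kinds of B cell, the B-1a, B-1b and conventional B-2 cells, from the peritoneal cavity of both. By the study's gating both B-1 subsets were IgD-lo, CD23-lo and B220-lo B cells, and they were separated by surface CD5, present on B-1a and absent from B-1b cells. All 4 libraries came from the same tissue and genotype, so that the comparison carries no deleted allele and no treatment. The labels do not say whether the B-1a and B-1b libraries of one number came from the same animal, nor that each library is a separate animal, and p-values then measure the spread between these libraries only.

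The libraries titled WT 1 and WT 2 were left out because their transcripts went against their labels. Cd5 stood at 5.16 and 1.63 CPM (counts scaled to library size) in the libraries labelled B-1a WT 1 and B-1a WT 2, and at 17.9 and 3.20 CPM in those labelled B-1b WT 1 and B-1b WT 2. Fcer2a, which encodes CD23, stood at 817 CPM in the library labelled B-1a WT 1 and at 597 CPM in that labelled B-1b WT 2. The B-2 library titled WT 4, with 2.81 CPM of Cd5 and 758 CPM of Fcer2a, was the one WT library outside the comparison whose markers went with its label, and it serves below as a single reference with no replicate. The comparison with all 4 WT libraries of each label is given with the alternatives in the closing section.

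B-1 cells are the B cells that dominate the peritoneal and pleural cavities of the mouse. They persist by self-renewal and secrete much of the natural IgM of the blood. B-1a cells carry CD5, arise largely from fetal precursors and use a restricted set of antibodies, among which those binding phosphatidylcholine, a lipid exposed on aged red cells, pair the heavy chain gene Ighv11-2 with the kappa gene Igkv14-126 or Ighv12-3 with Igkv4-91. B-1b cells lack CD5 and are known for lasting responses to bacterial polysaccharides that need no T cell help. B-2 cells are the conventional follicular B cells, marked by CD23 (Fcer2a) and the complement receptor CD21 (Cr2).

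The V exons of those 4 genes are shown because they carried a large part of the B-1a immunoglobulin counts below. Each is written 5′ to 3′ on the coding strand from the start of the exon, read from GRCm39 with the GENCODE vM39 annotation. Capitals mark the bases at which the gene differs from its nearest relative among the 377 V genes and pseudogenes of the annotation, found with blastn.
Ighv11-2: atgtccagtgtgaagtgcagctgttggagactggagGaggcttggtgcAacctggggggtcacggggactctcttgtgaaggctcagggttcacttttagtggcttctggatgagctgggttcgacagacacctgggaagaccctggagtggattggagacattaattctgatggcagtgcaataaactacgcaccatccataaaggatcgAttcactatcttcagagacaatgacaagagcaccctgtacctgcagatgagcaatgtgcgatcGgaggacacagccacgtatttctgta
Igkv14-126: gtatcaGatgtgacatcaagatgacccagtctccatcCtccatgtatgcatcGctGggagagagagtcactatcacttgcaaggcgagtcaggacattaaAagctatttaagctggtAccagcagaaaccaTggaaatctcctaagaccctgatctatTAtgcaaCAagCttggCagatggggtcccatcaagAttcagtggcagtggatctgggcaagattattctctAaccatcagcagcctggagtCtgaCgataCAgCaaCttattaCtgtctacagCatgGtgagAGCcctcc
Ighv12-3: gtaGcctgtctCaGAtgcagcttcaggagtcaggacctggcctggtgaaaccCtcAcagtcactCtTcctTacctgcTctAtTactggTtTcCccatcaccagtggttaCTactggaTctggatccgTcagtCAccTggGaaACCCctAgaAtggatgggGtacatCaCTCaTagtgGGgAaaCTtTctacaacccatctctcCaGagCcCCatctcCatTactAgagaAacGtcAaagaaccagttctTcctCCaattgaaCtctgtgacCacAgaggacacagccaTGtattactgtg
Igkv4-91: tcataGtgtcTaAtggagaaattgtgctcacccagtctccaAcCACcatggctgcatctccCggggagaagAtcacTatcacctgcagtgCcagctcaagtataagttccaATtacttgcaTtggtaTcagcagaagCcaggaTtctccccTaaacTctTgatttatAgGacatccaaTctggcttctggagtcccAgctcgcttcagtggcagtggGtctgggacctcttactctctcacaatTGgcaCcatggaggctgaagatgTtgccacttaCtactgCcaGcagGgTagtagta
The bases shown are chr12:114011868-114012167 for Ighv11-2 and chr12:114330151-114330450 for Ighv12-3, both on the minus strand, chr6:67873329-67873626 on the plus strand for Igkv14-126, and chr6:68745548-68745847 on the minus strand for Igkv4-91. Ighv11-2 was 98.7% identical to Ighv11-1 over 300 bases and differed from it at 4 of them. Igkv14-126 was 90.9% identical to Igkv14-111, Igkv4-91 88.6% identical to the pseudogene Igkv4-60, and Ighv12-3 80.0% identical to the pseudogene Ighv3-2. Fragments that matched more than one gene were not counted by the authors, so that counts of Ighv11-2 hold no fragment that matched Ighv11-1 equally well. Ighv11-1 itself stood at 1.03 and 0.999 CPM in B-1a WT 3 and WT 4 and at 0.363 and 0.837 CPM in B-1b WT 3 and WT 4.

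The 4 libraries held between 16519590 and 19792300 counts on genes and between 25898 and 27677 genes with 1 or more counts. Immunoglobulin genes took 6.27 and 5.46% of the counts in B-1a WT 3 and WT 4 and 5.55 and 5.29% in the B-1b libraries, and mitochondrial genes between 1.43 and 1.69%. B cells were present in each library by the IgM heavy chain gene Ighm, between 17430 and 20244 CPM, which does not tell the subsets apart. Transcripts of peritoneal macrophages were present too, and at a higher level in B-1a libraries. The 14 macrophage markers summed to 27255 and 28440 CPM in B-1a WT 3 and WT 4 and to 14838 and 12740 CPM in B-1b WT 3 and WT 4, most of it from the lysozyme gene Lyz2. In bulk libraries, more cells of a type and more RNA per cell cannot be told apart.

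The subsets differed in 500 of 15097 genes tested (3.31%) at an adjusted p under 0.05 (edgeR quasi-likelihood fit, Benjamini-Hochberg over all genes tested), and these genes are referred to as called. B-1a libraries were the higher side in 316 of them (2.09%) and the lower side in 184 (1.22%). Outside immunoglobulin genes, 443 of 14855 genes were called (2.98%), 306 higher (2.06%) and 137 lower (0.922%) in B-1a, and among them 142 and 80 changed by more than 1 on the log2 scale. Immunoglobulin genes leaned the other way, with 57 of 242 called (23.6%), 10 higher (4.13%) and 47 lower (19.4%) in B-1a. Most of these are V genes, whose levels are not independent of one another, as given with the V genes below. The libraries of the 2 subsets did not overlap in any of the 500 called genes, beside 47% of all genes tested. The median log2 fold change, B-1a over B-1b, was 0.005 over all genes and -0.50 over immunoglobulin genes. In 7 called genes both libraries of one side held no count, and 56 called genes had a mean under 5 CPM on their higher side. In a single fit with the TET2-KO libraries 4 genes were called (Cd5, Pstpip2, Ighv11-2 and B3gnt8), and all 4 WT libraries of each label gave 0 calls, with 256 at an unadjusted p under 0.05 and 1 call by DESeq2. Without B-1b WT 3 the count rose to 1251.

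**Figure D1:**
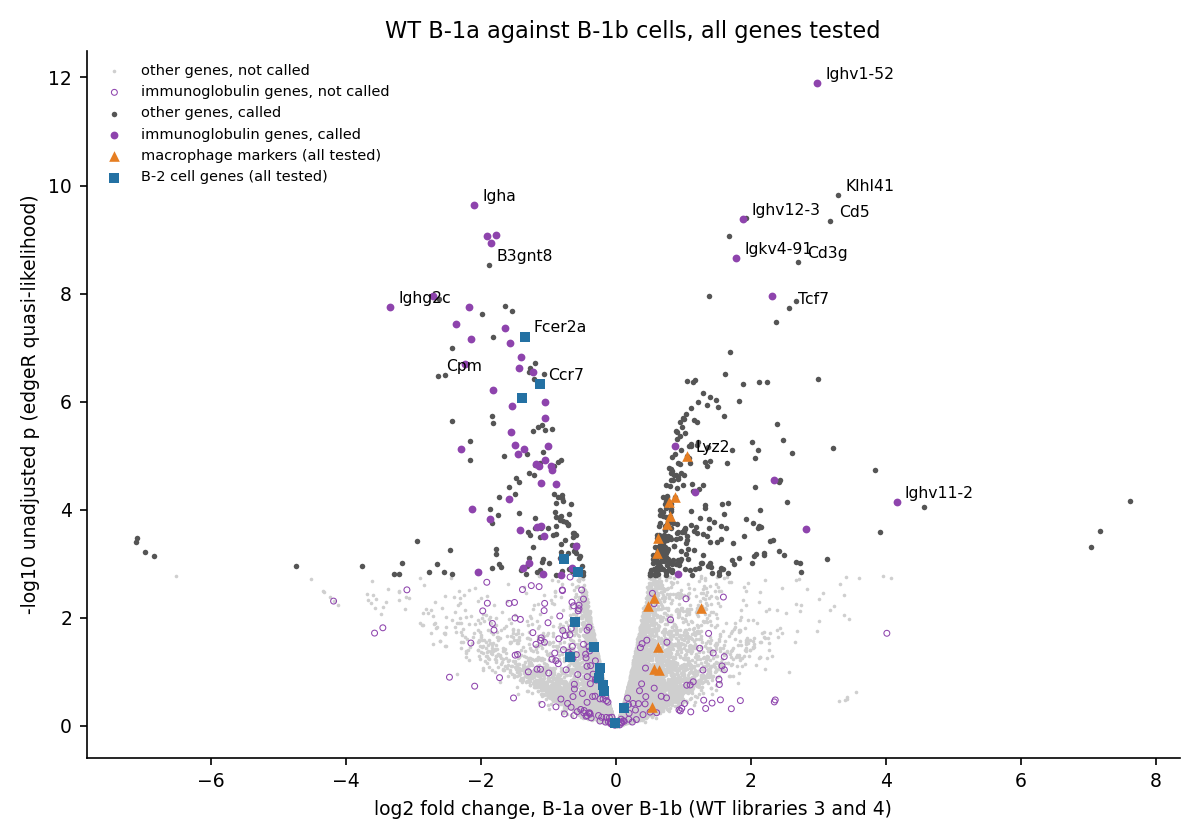
Each point is a gene tested in WT B-1a against B-1b libraries (2 against 2), with the log2 fold change, B-1a over B-1b, on the x axis and -log10 of the unadjusted p on the y axis. Called immunoglobulin genes (purple, filled) lie mostly to the left, 47 of 57, the macrophage markers (orange triangles) all lie to the right of 0 and the called B-2 cell genes (blue squares) all lie to the left.

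Cd5 and Fcer2a decided which libraries were kept, so that their values here are a description and support nothing. Cd5 (chr19:10694480-10716366, minus strand) stood at 19.6 and 22.6 CPM in B-1a WT 3 and WT 4 and at 2.07 and 2.56 CPM in B-1b WT 3 and WT 4. B-1a libraries were 9.09-fold higher by mean, with a log2 fold change of 3.18 (SE 0.25), and the B-1b values lay beside the 2.81 CPM of the B-2 library. Fcer2a (chr8:3731737-3744175, minus strand) stood at 26.3 and 26.6 CPM in B-1a and 63.7 and 70.3 CPM in B-1b libraries, both far below the 758 CPM of the B-2 library. The B-1b libraries were higher, with a log2 fold change of -1.35 on the scale of B-1a over B-1b that is used throughout (SE 0.15), and with all 4 WT libraries of each label the log2 fold changes were 0.92 for Cd5 and 0.24 for Fcer2a. Ptprc, which encodes CD45 and B220, and Ighd did not pass the test, at log2 fold changes of -0.30 and -0.15. Ighd, the IgD heavy chain gene, stood at 333 and 346 CPM in B-1a and 404 and 350 CPM in B-1b libraries, against 2847 CPM in the B-2 library.

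Among the genes of largest fold change outside immunoglobulin, Cd3g and Tcf7 were higher in B-1a and are best known from T cells. Cd3g (chr9:44880870-44891729, minus strand), a chain of the T cell receptor complex, stood at 36.7 and 52.1 CPM in B-1a WT 3 and WT 4 and at 5.70 and 7.90 CPM in the B-1b libraries (log2 fold change 2.70, SE 0.22, adjusted p = 3.2e-06). Tcf7 (chr11:52143198-52174158, minus strand), which encodes the transcription factor TCF1 of the Wnt pathway, stood at 24.7 and 18.1 CPM against 2.90 and 4.29 CPM (log2 fold change 2.57, SE 0.26, adjusted p = 1.3e-05). Fzd6, a Wnt receptor, stood at 17.5 and 15.2 CPM against 3.21 and 3.09 CPM, with a log2 fold change of 2.37. For each of these genes both B-1a libraries lay well above both B-1b libraries, and the B-2 library lay below both B-1b libraries, at 4.67 CPM for Cd3g, 1.72 CPM for Tcf7 and 1.92 CPM for Fzd6. The noncoding gene Gm26704 overlaps the start of Fzd6 on the other strand and was called with it (log2 fold change 3.00); the counting used no strand, so that their reads cannot be fully told apart.

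The cytokine and cytokine receptor genes Tnfsf8, Il17rb and Tnfsf4 were higher in B-1a libraries as well. Tnfsf8, the CD30 ligand, stood at 37.6 and 24.4 CPM in B-1a and 7.10 and 3.98 CPM in B-1b libraries (log2 fold change 2.48, SE 0.29, adjusted p = 0.00088). Il17rb, a receptor subunit for IL-25, stood at 4.07 and 7.15 CPM against 1.24 and 0.837 CPM, and Tnfsf4, the OX40 ligand, at 7.42 and 7.62 CPM against 2.02 and 1.57 CPM. In each of these genes both B-1a libraries lay above both B-1b libraries. Pstpip2, an adaptor that binds the actin skeleton in myeloid cells, stood at 86.4 and 96.4 CPM against 22.2 and 25.6 CPM (log2 fold change 1.93, adjusted p = 1.1e-06) and at 8.44 CPM in the B-2 library.

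Klhl41 (chr2:69500464-69514574, plus strand), a kelch protein known from the muscle sarcomere, headed the 15 genes of largest fold change higher in B-1a outside immunoglobulin. It stood at 24.9 and 21 CPM in B-1a and 2.43 and 2.25 CPM in B-1b libraries (log2 fold change 3.28, SE 0.24, adjusted p = 1.1e-06). Pigr, which carries polymeric IgA and IgM across epithelia, stood at 29.7 and 24.1 CPM against 5.39 and 3.04 CPM. The rest of the 15 genes were Atp1b1, a subunit of the sodium pump, Tmc3, Igsf9b, Gm49909, and the genes A430093F15Rik, which lies beside Cd5 on chromosome 19, and Gm31718, at log2 fold changes between 2.11 and 2.61. Gm49909 turned to -1.18 with the macrophage level of each library as a covariate, in the fit given with the macrophage markers. Atp1b1 and Gm49909 stood above both B-1b libraries in the B-2 library too, at 4.32 and 5.56 CPM.

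**Figure D2:**
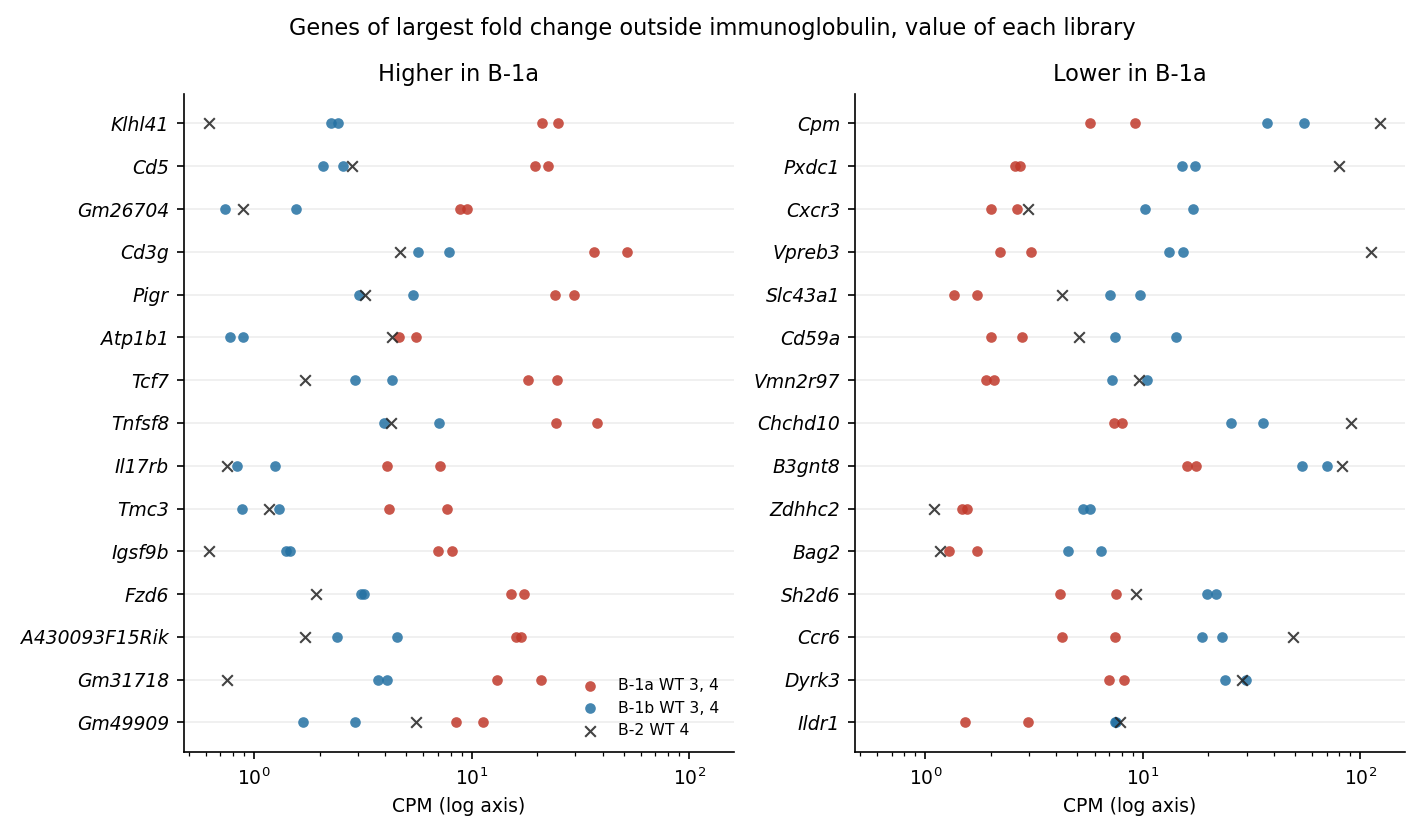
Values of each library in CPM, on a log axis, for the 15 genes of largest fold change higher in B-1a (left) and the 15 lower in B-1a (right), with B-1a WT 3 and 4 in red, B-1b WT 3 and 4 in blue and B-2 WT 4 as a cross. B-1a and B-1b points do not overlap in any gene, the cross lies near or below the blue points for most genes on the left, and it lies beyond the blue points for genes such as Cpm, Pxdc1 and Vpreb3 on the right.

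Genes higher in B-1b libraries included 2 sets that differ in where the B-2 library stood. In the first, the B-2 library was higher still. Cpm, which encodes the membrane enzyme carboxypeptidase M (chr10:117465405-117523257, plus strand), stood at 9.23 and 5.73 CPM in B-1a, 55.2 and 37.4 CPM in B-1b libraries and 123 CPM in the B-2 library (log2 fold change -2.64, SE 0.25, adjusted p = 0.00011). Vpreb3, which encodes a protein that associates with immunoglobulin chains in B cell precursors, stood at 2.19 and 3.05 CPM against 15.3 and 13.2 CPM, and at 112 CPM in the B-2 library (log2 fold change -2.43, adjusted p = 4.9e-05). Pxdc1 stood at 2.71 and 2.58 CPM against 15.2 and 17.3 CPM, and Chchd10, a mitochondrial protein, at 7.36 and 7.99 CPM against 35.8 and 25.4 CPM, with 79.4 and 90.9 CPM in the B-2 library. Ccr6, the receptor for CCL20, stood at 4.26 and 7.47 CPM in B-1a, 18.7 and 23.2 CPM in B-1b and 49.1 CPM in the B-2 library. With all 4 WT libraries of each label, the log2 fold changes turned to 0.45 for Pxdc1, 0.64 for Vpreb3, 0.0875 for Chchd10 and 0.21 for Ccr6.

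In the other set, the B-2 library lay below the B-1b libraries. Cxcr3, a chemokine receptor for interferon-induced ligands (chrX:100775141-100777875, minus strand), stood at 2.00 and 2.63 CPM in B-1a, 16.9 and 10.2 CPM in B-1b and 2.95 CPM in the B-2 library (log2 fold change -2.54, SE 0.31, adjusted p = 0.00011). Slc43a1, a transporter of large neutral amino acids, stood at 1.36 and 1.74 CPM against 7.04 and 9.73 CPM, with 4.25 CPM in the B-2 library. Zdhhc2, a palmitoyltransferase, stood at 1.55 and 1.47 CPM against 5.28 and 5.70 CPM, with 1.10 CPM in the B-2 library. Cd59a, an inhibitor of the complement pore, Sh2d6 and Bag2, a cochaperone, also had B-2 values below both B-1b libraries. The last of the 15 genes, B3gnt8, a glycosyltransferase, Dyrk3, a kinase, Ildr1 and the vomeronasal receptor gene Vmn2r97, had log2 fold changes between -2.16 and -1.76, and their B-2 values lay between or above those of the B-1b libraries.

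Over all 137 genes outside immunoglobulin that were lower in B-1a, the B-2 library lay below both B-1b libraries in 64 (46.7%, beside 40.3% of all such genes tested). Over the 306 genes higher in B-1a, it lay below both B-1b libraries in 115 (37.6%). Both shares were near that of all genes, and they rest on 1 B-2 library, whose macrophage markers summed to 26115 CPM.

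Of the 14 B-2 cell genes tested, 5 were lower in B-1a and none higher, beside 1.22% lower and 2.09% higher over all genes tested, and the list median was -0.45 beside 0.005. Fcer2a is one of the 5, and its values had a part in the choice of libraries, so that the count is not independent of that choice. With all 4 WT libraries of each label the list median was -0.0663, and Cr2 turned to 0.19. Cr2, the complement receptor CD21, stood at 13.4 and 15.5 CPM in B-1a, 32.5 and 43.7 CPM in B-1b and 198 CPM in the B-2 library (log2 fold change -1.40, adjusted p = 0.00023). Ccr7, which directs cells to lymphoid tissue, stood at 174 and 208 CPM against 431 and 404 CPM (log2 fold change -1.13, adjusted p = 0.00014), and was highest in the B-2 library, at 1035 CPM. Satb1 and Icosl, which stood at 66.5 and 91.3 CPM in the B-2 library, were at 8.08 and 5.34 CPM and at 15.3 and 16.5 CPM in B-1b libraries and did not pass the test. The part of B-2 cells within the B-1b gate in these differences was not tested.

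Among 11 tested chemokine, sphingosine and oxysterol receptor genes, which guide migration, 2 were higher and 2 lower in B-1a, beside 3.31% called over all genes tested. Ccr1, a receptor for CCL3 and CCL5, stood at 195 and 205 CPM in B-1a and 95 and 98.1 CPM in B-1b libraries (log2 fold change 1.05, adjusted p = 0.00013), and Ccr9, the receptor for the gut chemokine CCL25, at 18.7 and 17.4 CPM against 11 and 6.49 CPM. Gpr183, which senses oxysterols, stood at 321 and 333 CPM against 656 and 606 CPM (log2 fold change -0.95, adjusted p = 0.00061), and Gpr34, a lysophosphatidylserine receptor, at 7.94 and 13.5 CPM against 29.4 and 42.3 CPM. Ccr7, Ccr6 and Cxcr3, given above, were counted in other lists. Of the 16 tested integrin and adhesion genes 1 was called, Itga6, the integrin alpha 6 chain, at 70.5 and 60.7 CPM against 45.3 and 34.7 CPM.

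Of the 21 genes for B-1 surface and regulatory molecules, 4 were higher and 1 lower in B-1a, beside 2.09 and 1.22% of all genes tested. Cd5 is one of the 4, and it defined the sort and had a part in the choice of libraries. The count is therefore not independent of that choice. Besides Cd5, Ctla4, an inhibitory receptor best known on T cells, stood at 111 and 135 CPM in B-1a and 45.6 and 66.9 CPM in B-1b libraries (log2 fold change 1.12, SE 0.18, adjusted p = 0.0032). Cd300lf, an inhibitory receptor that binds phosphatidylserine, stood at 155 and 143 CPM against 58.2 and 56.5 CPM (log2 fold change 1.38, adjusted p = 1e-05), and Cd9, a tetraspanin of B-1 and marginal zone cells, at 422 and 446 CPM against 256 and 239 CPM. Cd55, a regulator of complement, was lower in B-1a, at 418 and 338 CPM against 596 and 526 CPM. Spn, which encodes CD43, missed the threshold at 30.5 and 38.4 CPM against 22.5 and 22.4 CPM (adjusted p = 0.052). The median of the list was 0.25, beside 0.005 over all genes tested.

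Of 13 B-1 transcription factors 1 was called and of 17 B cell identity factors 3, beside 2.98% of all genes outside immunoglobulin. The B-1 factor was Bhlhe41, a repressor needed for B-1a cell maintenance, which stood at 39.8 and 34.9 CPM in B-1a and 26.8 and 20.3 CPM in B-1b libraries (log2 fold change 0.66, adjusted p = 0.042), and Nfatc1, a factor downstream of calcium signalling, stood at 335 and 304 CPM against 203 and 240 CPM (adjusted p = 0.054). Both lay below the B-1b libraries in the B-2 library, at 6.45 and 127 CPM. Among identity factors, Irf8 stood at 89.5 and 119 CPM against 172 and 189 CPM (log2 fold change -0.80, adjusted p = 0.0052), and the inhibitors of E proteins moved apart, with Id2 at 74.2 and 69.2 CPM against 44.5 and 46.1 CPM and Id3 at 51.4 and 59.7 CPM against 89.8 and 77.7 CPM. With the macrophage covariate Id2 turned to a log2 fold change of -0.12.

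Of 18 tested inhibitory receptors and phosphatases of the B cell receptor 3 were lower and none higher in B-1a, beside 1.22% lower and 2.09% higher over all genes tested, with a median of -0.18 beside 0.005. Fcgr2b, the inhibitory Fc receptor, stood at 161 and 213 CPM in B-1a and 304 and 306 CPM in B-1b libraries (log2 fold change -0.71, adjusted p = 0.012). Fcrl1 stood at 53.0 and 73.4 CPM against 119 and 119 CPM, and Lax1, an adaptor that dampens receptor signals, at 70.3 and 72.1 CPM against 114 and 112 CPM. With all 4 WT libraries of each label Fcgr2b turned to 0.0104 and Fcrl1 to 0.10. Of the 23 genes of the B cell receptor signalling core 1 was called, beside 3.31% of all genes tested, and this was Ifitm3, at 372 and 476 CPM against 230 and 239 CPM, and it was higher still in the B-2 library, at 498 CPM. With the macrophage covariate Ifitm3 turned to a log2 fold change of -0.32.

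Among 16 antigen-experienced and Tbx21-linked B cell genes, 3 were higher and 3 lower in B-1a, beside 3.31% called over all genes tested. Tnfsf4, Fcer1g and Lgals1 were higher in B-1a, and Cxcr3, Ccr6 and Fas, the death receptor, were higher in B-1b. Fas stood at 8.13 and 8.15 CPM against 16.4 and 12.6 CPM, and Lgals1, a galectin, at 495 and 475 CPM against 374 and 268 CPM. Fcer1g, the common gamma chain of activating Fc receptors, stood at 196 and 239 CPM against 110 and 109 CPM and at 242 CPM in the B-2 library, and macrophages carry this gene too. With all 4 WT libraries of each label Lgals1 turned to -0.0857.

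In several other lists 1 or 2 members were called, beside 3.31% over all genes, and counts this small are no result about the lists. Ebi3, a cytokine subunit, was called among 18 tested genes of the cytokine and BAFF axis, at 53.6 and 65.7 CPM in B-1a against 32.2 and 30.9 CPM, while Il10 stood at 3.42 and 4.42 CPM against 1.55 and 1.83 CPM and did not pass the test. Ebi3 turned to -0.0493 with all 4 WT libraries of each label. Bcl2, the survival gene, was called among 13 members of its family, at 169 and 156 CPM against 97.3 and 120 CPM (log2 fold change 0.58, adjusted p = 0.032). Ly96, the partner of TLR4, was called among 15 Toll-like receptor genes, Oasl1 among 14 interferon-stimulated genes, where it was lower in B-1a, and Lgals1 and Anxa1 in opposite directions among 15 annexin, S100 and Ahnak genes. Ahnak2 stood at 232 and 164 CPM against 84.7 and 49.9 CPM and did not pass (log2 fold change 1.56, SE 0.30, adjusted p = 0.075).

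Among the lists of B cell and general functions, 6 had no member called. These were plasma cell differentiation (17 tested), class switching and germinal centre (13), MHC class II (11), proliferation (12), immediate early (12) and heat shock genes (10). With 3.31% called over all genes tested, the lack of a call in lists this small is no result about them. Xbp1, a secretory factor of plasma cells, stood at 123 and 154 CPM in B-1a and 178 and 184 CPM in B-1b libraries (adjusted p = 0.17). The plasma cell list had a median of -0.002, near that of all genes tested, and the proliferation list one of 0.47, from genes of low level such as Cdk1, at 4.52 and 5.26 CPM against 1.5 and 2.62 CPM.

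**Figure D3:**
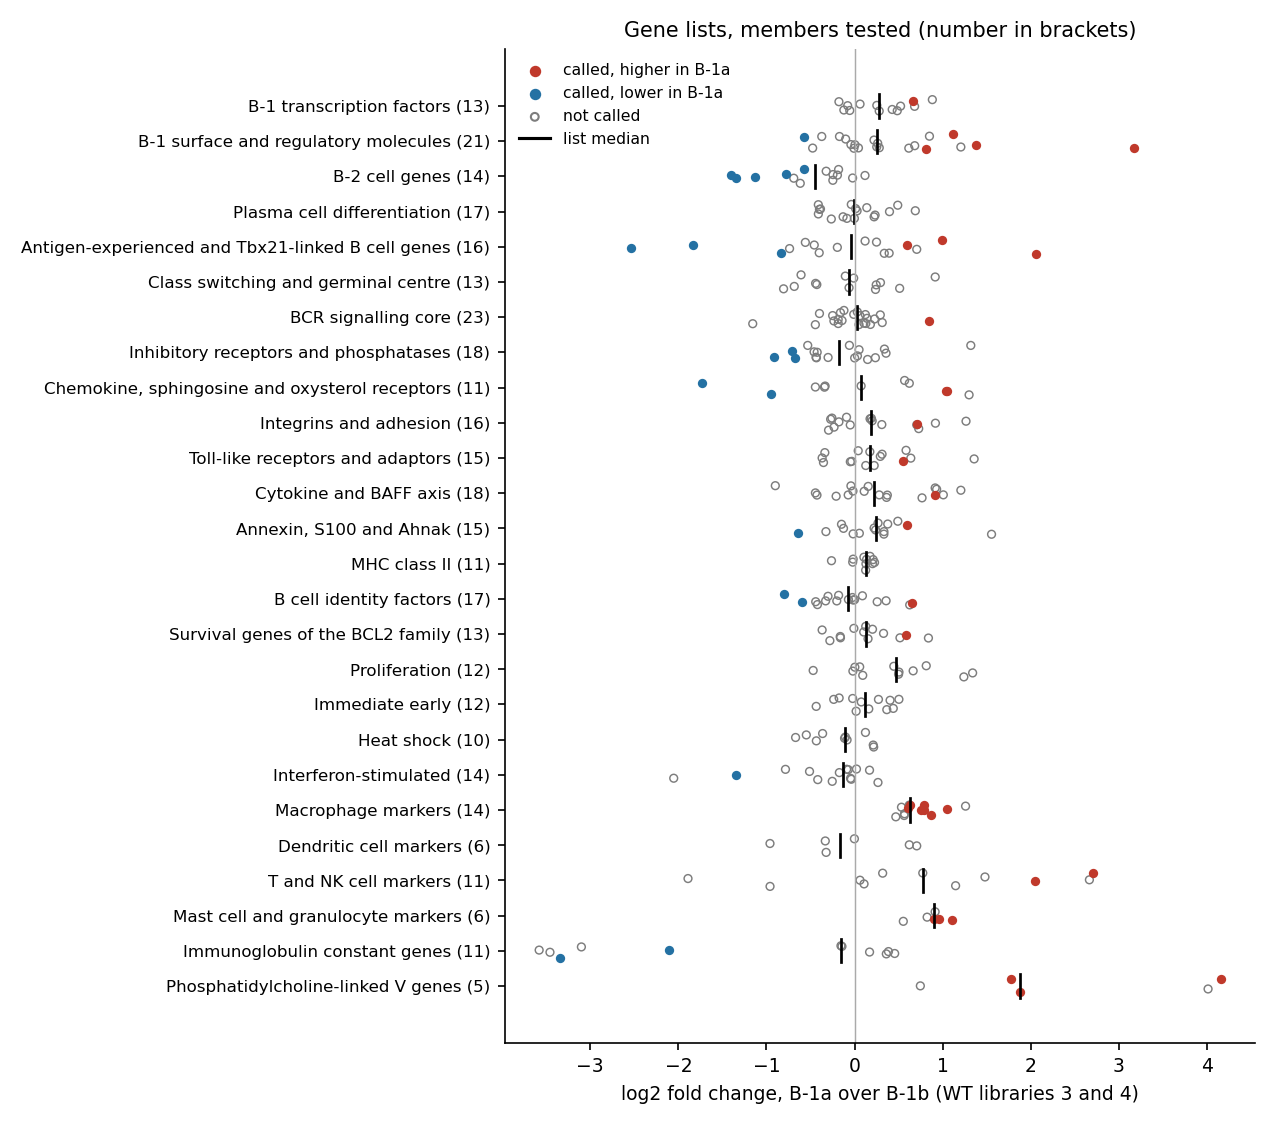
Log2 fold change, B-1a over B-1b, of every tested member of 26 gene lists, with called genes filled (red higher, blue lower in B-1a), the others open, and the list median as a black bar. The erythroid markers are not shown. The B-2 cell genes lean to the left, with 5 called there, the macrophage and mast cell markers lie wholly to the right, and the constant genes split into IgG and IgA genes on the left and the rest near 0.

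Markers of other cells moved with the comparison. All 14 macrophage markers had positive log2 fold changes, with a median of 0.63 beside 0.005 over all genes tested. Of the 14, 7 were called higher in B-1a, beside 2.09% of all genes tested. Lyz2 stood at 24620 and 24920 CPM in B-1a and 12960 and 10910 CPM in B-1b libraries (log2 fold change 1.05, adjusted p = 0.0013), and C1qa, the complement component, at 317 and 420 CPM against 216 and 210 CPM. Of the mast cell and granulocyte markers 6 were tested and 3 were higher in B-1a, beside 2.09% of all genes tested. The list median was 0.91 beside 0.005. All 3 were mast cell proteases, among them Cma1 at 342 and 376 CPM against 153 and 215 CPM. The neutrophil marker Ly6g had no count in any of the 4 libraries. The summed level of the list was 1193 to 1204 CPM in B-1a and 506 to 749 CPM in B-1b libraries. With the macrophage level of each library as a covariate, in a fit with the TET2-KO libraries that was added after the values were seen, 6 genes outside immunoglobulin were higher and 9 lower in WT B-1a, beside 2 and 1 in that fit without the covariate. Among the 442 WT calls it tested, 410 kept their sign. Cd5 had a log2 fold change of 3.32, Pstpip2 of 1.69, Cd3g of 2.45 and Lyz2 of -0.001 there. Lyz2 makes up most of the covariate, so that its own value follows from the fit. The part of mast cell RNA was not tested.

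T and NK cell markers were read apart because Cd3g is one of them. Their summed level was 99.3 to 113 CPM in B-1a and 51.1 to 54.9 CPM in B-1b libraries. Of 11 tested 2 were called, Cd3g and Cd3e, beside 3.31% of all genes tested. Cd3e stood at 3.68 and 2.63 CPM against 0.621 and 0.890 CPM. Cd3d, Trac and Cd247, which encode other chains of the same receptor complex, did not pass the test. Cd3d stood at 5.29 and 3.31 CPM against 2.85 and 2.15 CPM, Trac at 4.65 and 2.68 CPM against 1.81 and 1.46 CPM, and Cd247 at 1.74 and 1.21 CPM against 1.61 and 1.20 CPM. Cd4 and Cd8a, which mark T cell classes, had log2 fold changes of 1.48 and 2.67 from values under 1.5 CPM and did not pass either. Both B-1a libraries lay above both B-1b libraries in 7 of the 11 and below both in 1. Over all genes tested, 47% did not overlap in one direction or the other. The list median was 0.77 beside 0.005, and the lowest log2 fold change was -1.89. The part of T cells in the Cd3g difference was not tested. Erythroid markers summed to 279 CPM in B-1a WT 4 and to at most 29.5 CPM in the other 3 libraries. None of the 5 tested was called, at a list median of 3.39. Dendritic cell markers summed to 50.1 to 68.5 CPM in B-1a and 28.3 to 74.1 CPM in B-1b libraries, with none of 6 called.

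B-1b libraries held more class-switched heavy chain transcripts. Igha (chr12:113218450-113223856, minus strand), the IgA constant gene, stood at 35.9 and 45.9 CPM in B-1a WT 3 and WT 4 and at 160 and 191 CPM in B-1b WT 3 and WT 4 (log2 fold change -2.10, SE 0.16, adjusted p = 1.1e-06). Ighg2c stood at 0.904 and 1.42 CPM against 13.2 and 10.8 CPM (log2 fold change -3.35, SE 0.33, adjusted p = 1.3e-05). The other IgG genes had fold changes as large without passing the test. Ighg3 stood at 35.6 and 74.5 CPM against 451 and 493 CPM (log2 fold change -3.10, SE 0.43, adjusted p = 0.073), Ighg2b at 13.0 and 32.4 CPM against 239 and 306 CPM (-3.58, adjusted p = 0.20), and Ighg1 at 0.387 and 2.79 CPM against 20.5 and 16 CPM (-3.46, adjusted p = 0.18). In each, B-1b libraries lay far above B-1a libraries, and the B-1a libraries differed from one another by more than 2-fold.

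As shares of the heavy chain constant counts, which need no scaling between libraries, the IgG genes together held 0.242 and 0.562% in B-1a and 3.87 and 4.36% in B-1b libraries. The 95% Wilson interval, which covers counting error only, was 0.225 to 0.259% for B-1a WT 3 and 3.80 to 3.93% for B-1b WT 3. Igha held 0.174 and 0.232% against 0.855 and 1.01%, and Ighm, the IgM gene, 98.0 and 97.5% against 93.1 and 92.8%. None of these shares overlapped, and with 2 libraries against 2 the two-sided exact permutation test gave p = 0.333, the smallest value this design allows. IgM remained the main isotype of both subsets. In CPM, Ighm, Igkc and the lambda constant genes Iglc1, Iglc2 and Iglc3 did not pass the test, with log2 fold changes between -0.14 and 0.46, and the lambda share of light chain constant counts was 28.2 and 32.8% in B-1a and 32.2 and 34% in B-1b libraries. IgG genes share long stretches of sequence, so that the split between them is less certain than their sum.

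**Figure D4:**
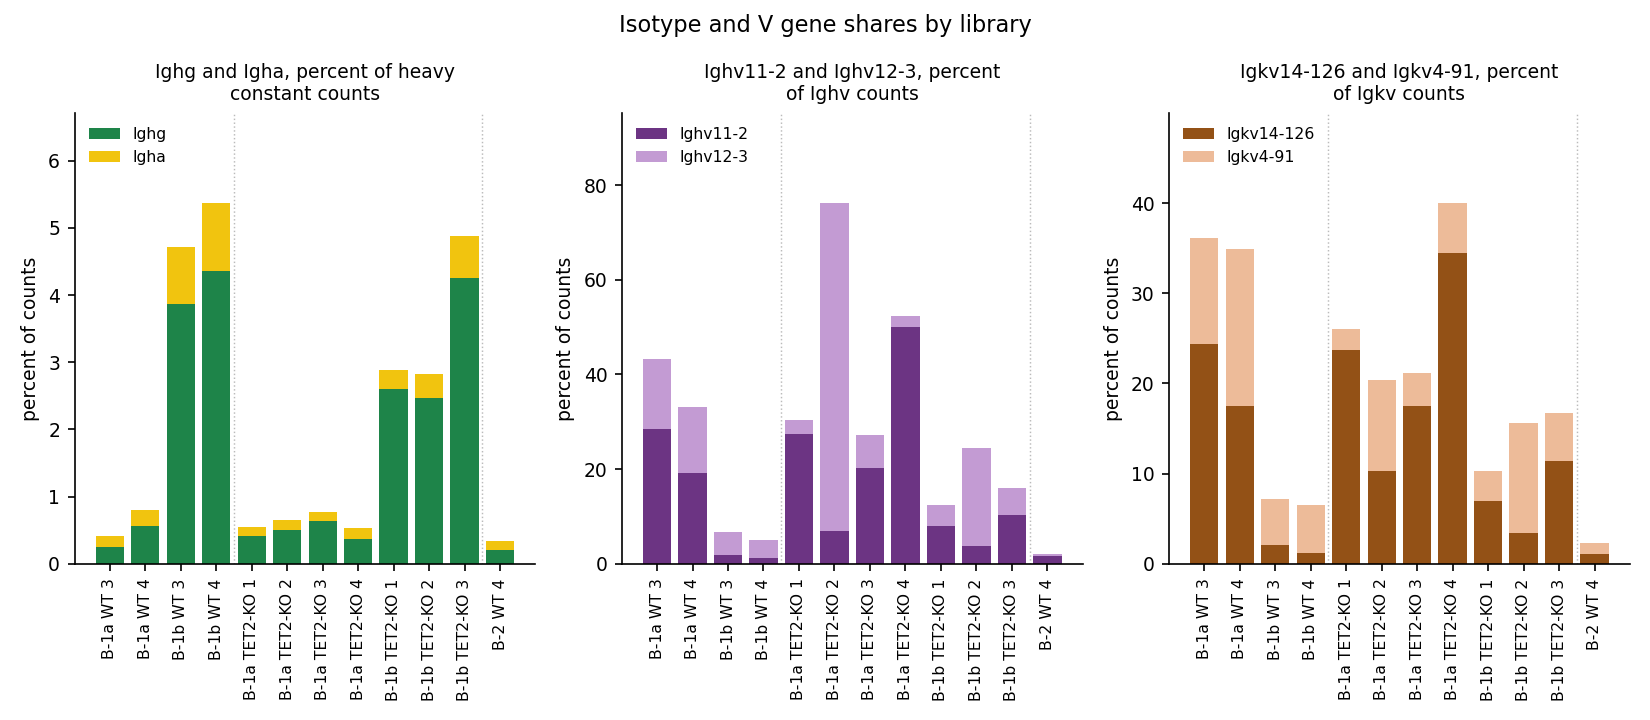
Percent of heavy constant counts on Ighg and Igha genes (left), of Ighv counts on Ighv11-2 and Ighv12-3 (middle) and of Igkv counts on Igkv14-126 and Igkv4-91 (right), stacked, in each B-1 library used here, in the TET2-KO libraries and in B-2 WT 4. The WT B-1b bars are high in the left panel and low in the other panels, and the WT B-1a bars the reverse, while in TET2-KO libraries the V gene bars vary between libraries of a subset.

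The genes linked to phosphatidylcholine binding took a larger part of the V gene counts in B-1a libraries. Ighv11-2 stood at 713 and 438 CPM in B-1a and at 39.5 and 25.0 CPM in B-1b libraries (log2 fold change 4.16, SE 0.36, adjusted p = 0.0059), and Ighv12-3 at 369 and 320 CPM against 101 and 85.4 CPM (log2 fold change 1.88, adjusted p = 1.1e-06). Igkv4-91 stood at 1221 and 1327 CPM against 405 and 338 CPM (log2 fold change 1.77, adjusted p = 3e-06). With all 4 WT libraries of each label Ighv12-3 turned to -0.92 and Igkv4-91 to -0.92, and with the macrophage covariate Ighv12-3 turned to -0.24. Igkv14-126 stood at 2540 and 1341 CPM against 164 and 76.6 CPM and did not pass (log2 fold change 4.01, SE 0.72, adjusted p = 0.20), the libraries of one subset differing by about 2-fold while the subsets did not overlap. Ighv11-2 and Ighv12-3 together took 43.2 and 33.1% of the Ighv counts in B-1a and 6.70 and 4.97% in B-1b libraries, and Igkv14-126 and Igkv4-91 together 36.1 and 34.9% of the Igkv counts against 7.16 and 6.53%. The subsets did not overlap in either share, with a two-sided exact permutation p of 0.333.

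Repertoires of B-1b libraries were spread over more V genes. The effective number of Ighv genes (the inverse of the summed squared shares) was 8.57 and 14.1 in B-1a and 36.1 and 25.7 in B-1b libraries, and that of Igkv genes 10.04 and 13.2 against 29.6 and 29.4. The most used Ighv gene was Ighv11-2 in both B-1a libraries and Ighv6-3 in both B-1b libraries, at 8.17 and 14.9% of Ighv counts. The VH6 family took 5.38 and 5.0% in B-1a and 12.8 and 18.9% in B-1b libraries. Since shares of one library sum to 100%, the large VH11 and VH12 families lower all others in B-1a by construction. With these families left out of the total, VH6 still held 9.48 and 7.47% in B-1a and 13.8 and 19.9% in B-1b libraries, and VH7 2.56 and 2.39% against 7.04 and 5.56%, without overlap. VH1, the largest family, then held 49.8 and 45.4% in B-1a and 37.4 and 33.1% in B-1b libraries. These totals were chosen after the values were seen.

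Of 104 tested Ighv genes 3 were higher and 23 lower in B-1a, with a median log2 fold change of -0.69. Of 108 tested Igkv genes 6 were higher and 22 lower, with a median of -0.52. Beside these stand 4.13% higher and 19.4% lower over all immunoglobulin genes tested, and 2.09 and 1.22% over all genes tested. Summed Ighv counts were 38789 and 43573 in B-1a and 40540 and 42468 in B-1b libraries. Summed Igkv counts were 161377 and 145478 against 153293 and 121447. The genes linked to phosphatidylcholine took more of them in B-1a and left fewer counts for other V genes, in CPM as in shares. The lowered V genes are thus not independent of those genes, and the size of this part was not tested. Besides the genes above, Ighv1-52 stood at 88.0 and 101 CPM in B-1a and 12.8 and 11.1 CPM in B-1b libraries (log2 fold change 2.98, SE 0.16, adjusted p = 1.9e-08), the smallest adjusted p among all genes tested. In TET2-KO libraries the Ighv1-52 share of Ighv counts overlapped, at 0.0512 to 5.76% in B-1a and 0.557 to 2.42% in B-1b. Igkv7-33 had the largest fold change of the named V genes lower in B-1a, at 2.19 and 3.26 CPM against 19.5 and 16.6 CPM (log2 fold change -2.72), followed by Ighv1-11 at 5.03 and 3.26 CPM against 24.0 and 18.7 CPM, which turned to 0.86 with all 4 WT libraries of each label. Igkv4-81 stood at 9.04 and 4.73 CPM against 1.66 and 1.05 CPM. The last of the named V genes, Igkv8-34, Igkv4-61 and Ighv4-1, had log2 fold changes between -2.31 and -2.18.

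The same comparison was made in TET2-KO mice, with 4 B-1a and 3 B-1b libraries, none of which entered the WT comparison. By edgeR 0 of 14634 genes were called there, with 538 at an unadjusted p under 0.05 and a smallest adjusted p of 0.065, while DESeq2 called 91. The direction of the WT calls was mostly shared. Outside immunoglobulin, of the 306 genes higher in WT B-1a, 302 were tested and 283 were higher in TET2-KO B-1a as well (93.7%, beside 54% of all such genes), and of the 137 lower, 127 were tested and 119 were lower (93.7%, beside 46%). Of the 47 immunoglobulin genes lower in WT B-1a, 45 were lower in TET2-KO B-1a too (95.7%, beside 85.5% of immunoglobulin genes tested), and of the 10 higher, 6 were higher (60%, beside 14.5%). Cd5 stood between 15.7 and 20.8 CPM in the TET2-KO B-1a and between 2.93 and 4.91 CPM in the B-1b libraries (log2 fold change 2.27, adjusted p = 0.065). Cpm had a log2 fold change of -3.56 there (adjusted p = 0.077), B3gnt8 of -1.57 (adjusted p = 0.065), and Cd3g of 1.39 with B-1a values from 12.8 to 36.3 CPM and B-1b values from 4.63 to 11.5 CPM.

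The TET2-KO libraries differed in macrophage transcripts among themselves. In B-1a TET2-KO 4 the macrophage markers summed to 4892 CPM, below the 6238 to 15313 CPM of the TET2-KO B-1b libraries. This library lay above every TET2-KO B-1b library in 148 of the 306 genes higher in WT B-1a (48.4%, beside 30.8% of all such genes) and below every one in 97 of the 137 lower genes (70.8%, beside 31%). These are values of 1 library.

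**Figure D5:**
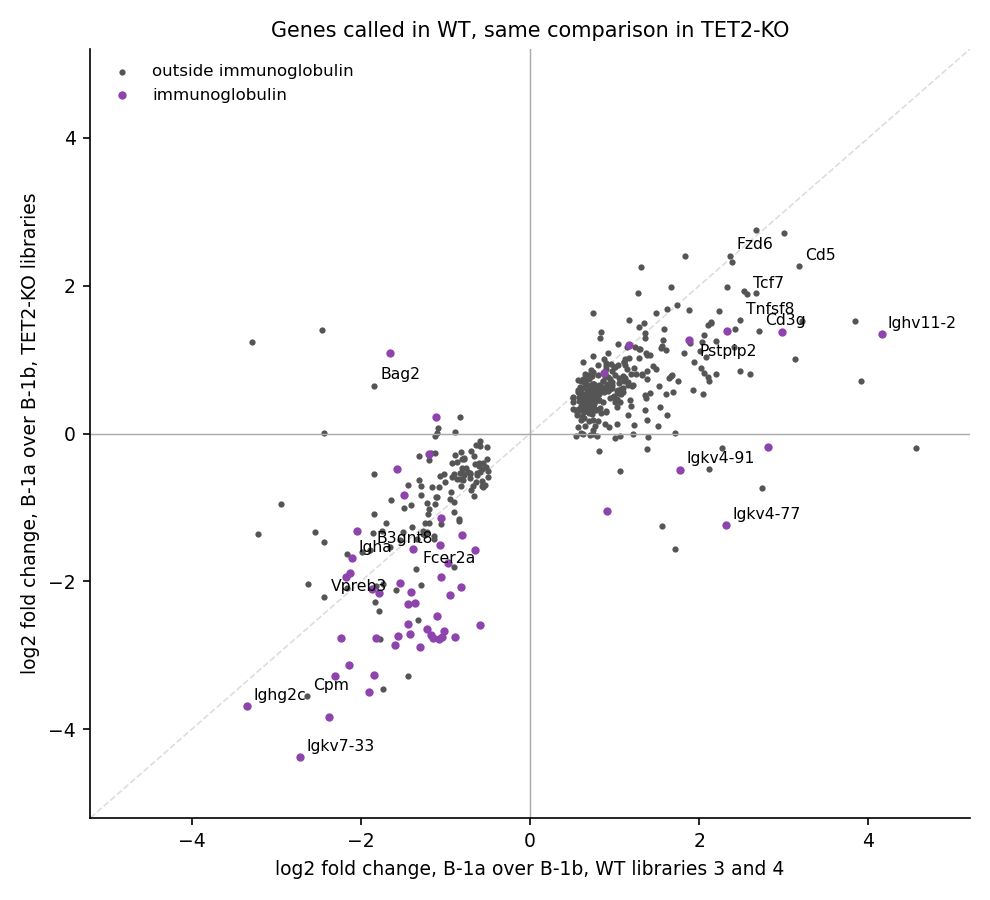
Genes called in the WT comparison, with the log2 fold change, B-1a over B-1b, in WT libraries (2 against 2) on the x axis and in TET2-KO libraries (4 against 3) on the y axis. Most points lie at the lower left and upper right, where the sign is shared, and immunoglobulin genes (purple) include points such as Igkv4-91 and Igkv4-77 in the lower right.

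A test of the difference between the WT and the TET2-KO effect called 0 of 17107 genes by edgeR, with 172 at an unadjusted p under 0.05, and 0 by DESeq2, with 441. A p that misses the threshold does not show that the effects were alike. Among the WT calls, Ighv11-2 had the smallest unadjusted p of this test (0.00065, adjusted p = 1.00), with TET2-KO values from 196 to 610 CPM in B-1a and 82.3 to 205 CPM in B-1b libraries. Igkv4-77, a V pseudogene that stood at 60.6 and 39.9 CPM in WT B-1a and 9.27 and 10.8 CPM in WT B-1b libraries, lay between 1.04 and 9.08 CPM in all TET2-KO B-1 libraries (unadjusted p = 0.00079). Pstpip2 followed with 54.6 to 92.8 CPM in TET2-KO B-1a and 37.0 to 40.4 CPM in B-1b libraries, a smaller gap in the same direction, and Hcrtr2 and Dnajc6, the latter with 0 and 1 counts in WT B-1a and 13 and 23 counts in WT B-1b libraries, completed the 5. Klhl41, which headed the WT list, was at most 1.29 CPM in every TET2-KO B-1 library and was too low to be tested in that contrast. Isotype shares kept their order, with IgG genes at 0.373 to 0.635% in TET2-KO B-1a and 2.47 to 4.25% in B-1b libraries, and Igha at 0.131 to 0.159% and 0.290 to 0.628%. For both, the two-sided exact permutation test gave p = 0.0286, the smallest value that 4 libraries against 3 allow. Ighv11-2 and Ighv12-3 together took 27.2 to 76.2% of Ighv counts in TET2-KO B-1a and 12.5 to 24.4% in B-1b libraries, without overlap. Igkv14-126 and Igkv4-91 together took 20.35 to 39.99% of Igkv counts against 10.31 to 16.76%, also without overlap. The two-sided exact permutation test of the means gave p = 0.114 and p = 0.0857. Taken singly, the shares of these genes overlapped between the TET2-KO subsets. Ighv11-2 ran from 6.94 to 49.9% of Ighv counts in B-1a and 3.71 to 10.4% in B-1b, Ighv12-3 from 2.47 to 69.3% and 4.55 to 20.7%, and Igkv14-126 from 10.3 to 34.4% and 3.35 to 11.4% of Igkv counts. The mean Igkv4-91 share was 5.40% in TET2-KO B-1a and 6.99% in B-1b libraries, the other direction from WT.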

How the data were processed

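One file per library held raw fragment counts for 56953 genes. Per the labels and the study's methods, the authors trimmed with fastp, aligned to GRCm39 with STAR and counted with featureCounts 1.6.1 on GENCODE vM32, without strand and without fragments of several matches or genes, and they deposited the counts unnormalized. Library preparation is described as poly-T selection in the labels and as amplified cDNA in the methods. Symbols came from GENCODE vM39 and were missing for 643 genes. No 2 of the 21 libraries were identical (0 of 210 pairs).

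B-1a and B-1b WT 3 and 4 were compared with edgeR 4.0.16 (limma 3.58.1, R 4.3.3), using robust quasi-likelihood fits, TMM, filterByExpr (minimum count 10) and Benjamini-Hochberg adjustment at 0.05. The tool was tested on simulated data. CPM used TMM over all 21 libraries. The same fit was made in TET2-KO libraries, and the difference between genotypes was an interaction term. Shares have 95% Wilson intervals, which cover counting error only, and two-sided exact permutation tests (scipy 1.17.1). V exons were compared with blastn 2.17.0.

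Named genes were the gate genes, up to 15 called genes of largest fold change in each direction outside immunoglobulin and 5 V genes in each direction (libraries apart, mean of at least 5 CPM on the higher side, no pseudogenes), the constant genes, up to 6 members of each list, and the 5 WT calls of smallest interaction p. The libraries, lists and rules were chosen with earlier results of these data known. Alternatives were DESeq2 1.42.0, other filters and scalings, thinned counts, a replicate block, other sets of libraries and leaving out each library. Some genes that these rules name are not reported here.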

Additional observations from a re-analysis of the deposited data

How the results depend on the processing

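DESeq2, a minimum of 10 counts in every library, RLE scaling, TMM without immunoglobulin genes and thinned counts gave 476 to 543 calls beside 500. With no filter on low counts the calls were 854, of which 576 were higher in B-1a outside immunoglobulin, and 17 higher and 71 lower among immunoglobulin genes. At an absolute log2 fold change over 1 they were 270, of which 142 and 80 were outside immunoglobulin. One fit with the TET2-KO libraries gave 4 (2 higher and 1 lower outside immunoglobulin, 1 and 0 within it), and 28 with the macrophage covariate (6 and 9, and 3 and 10). All 4 WT libraries of each label gave 0 by edgeR in every class and 1, a gene outside immunoglobulin higher in B-1a, by DESeq2, which gave 0 in the other classes. Of the called genes tested in each fit, every one kept its sign except with all 4 WT libraries (412 of 480 by edgeR, 426 of 500 by DESeq2) and with the covariate (465 of 499).

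Leaving out 1 library gave 481 to 1251 calls, the highest without B-1b WT 3, with 274 to 817 higher and 91 to 359 lower genes outside immunoglobulin, and 8 to 22 higher and 58 to 71 lower immunoglobulin genes. Both highest counts outside immunoglobulin came without B-1b WT 3, and the 91 and the 71 without B-1a WT 3. Higher immunoglobulin genes were 22 without either B-1a library and 16 without B-1b WT 3. List members called were 51, and 77 with no filter, 2 in the fit with TET2-KO libraries, 8 with the covariate, 0 with all 4 WT libraries, and 54 to 74 with 1 library left out. The replicate block, which takes the title numbers 3 and 4 as pairs, gave 1316 calls (827 and 362 outside immunoglobulin, 28 and 99 within it) and 111 list members. The deviations of same-numbered libraries had a correlation of 0.16 across genes, and nothing in the labels ties them to one animal. The difference between genotypes had 7 calls with no filter and 5 with the replicate block, immunoglobulin genes in both. In TET2-KO libraries, DESeq2 called 91 genes and leaving out 1 library gave 0 to 6, with 6 without B-1a TET2-KO 4 and 1 each without B-1a TET2-KO 1 and 2.

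Differences in share, B-1a minus B-1b in percentage points, moved for IgG from -3.71 to -2.80 with counts divided by gene length and -1.29 with all 4 WT libraries, and for Igha from -0.728 to -0.523 and -0.293. VH11 moved from 22.3 to 5.72 with all 4 WT libraries, VH12 from 10 to 11.2 by length and -2.57 with all 4, and Igkv4-91 from 9.32 to -2.89 with all 4. With 1 library left out, they ran from -3.96 to -3.46 for IgG, -0.804 to -0.652 for Igha, 17.6 to 27.0 for VH11, 9.55 to 10.5 for VH12 and 6.51 to 12.1 for Igkv4-91.

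With all 4 WT libraries the log2 fold change turned to 0.24 for Fcer2a, 0.45 for Pxdc1, 0.64 for Vpreb3, 0.0875 for Chchd10, 0.21 for Ccr6, 0.86 for Ighv1-11, 0.19 for Cr2, 0.10 for Fcrl1, 0.0104 for Fcgr2b, -0.92 for Ighv12-3, -0.92 for Igkv4-91, -0.0857 for Lgals1 and -0.0493 for Ebi3. With the covariate it turned to -1.18 for Gm49909, -0.24 for Ighv12-3, -0.32 for Ifitm3, -0.12 for Id2, -0.00124 for Lyz2, -0.0849 for C1qc and -0.12 for Csf1r. Lyz2, C1qc and Csf1r are macrophage markers that are part of the covariate, so that their own values follow from the fit. The cause of the other turns was not tested. With 2 libraries a side the exact test cannot go below 0.333.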
